A study of Mus musculus with 96 samples.

Results

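Wnt ligands, their Frizzled receptors and the proteins that oppose them are described here across microdissected glomeruli and 14 tubule segments of the mouse kidney. The genes are the rows of the deposited expression table named as a Wnt ligand, a Frizzled, Dkk1 to Dkk4, Sfrp1 to Sfrp5, Wif1, Rnf43 or Znrf3, which gave 40 of 54532 genes. They comprised 19 ligands, 10 Frizzleds, 9 secreted antagonists and 2 receptor ubiquitin ligases, and Frzb, which is also known as Sfrp3, is no match by name. All animals were untreated male C57BL/6 mice of 6 to 8 weeks with no allele or agent named in the labels, and the groups are told apart in the labels by the piece of nephron taken. They were the glomerulus (3 mice), the proximal tubule as convoluted PTS1 (3), cortical straight PTS2 (5) and outer stripe PTS3 (3), the thin limbs as short-loop descending DTL1 (3), long-loop descending DTL2 (3, outer medulla) and DTL3 (3, inner medulla) and ascending ATL (4), the medullary and cortical thick ascending limb, MTAL (3) and CTAL (5), the tubule beyond it as distal convoluted DCT (3) and connecting CNT (3), and the cortical, outer medullary and inner medullary collecting ducts CCD (5), OMCD (4) and IMCD (3). The 93 samples are pieces from 53 pairs of mouse number and segment, called mice here. The pieces of each were averaged, as TPM for the levels and as log2(TPM + 1) for the tests. The labels do not say whether a number is the same animal in different segments.

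Wnt proteins are lipid-modified secreted factors that bind Frizzled receptors, usually with Lrp5 or Lrp6, and either stabilise beta-catenin or act on cell shape and polarity. Dkk proteins block the Lrp co-receptors, Sfrp proteins and Wif1 bind the ligands themselves, and Rnf43 and Znrf3 are membrane ubiquitin ligases that remove Frizzleds from the cell surface. In the developing kidney, Wnt9b and Wnt11 of the ureteric bud and Wnt4 of the mesenchyme drive branching and nephron formation, and Wnt7b of the collecting duct is needed to form the medulla.

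Levels are given in TPM, the deposited unit of expression, which is scaled per length and can be compared between genes. Values are means ± SD over mice. The table holds no read depth. Odorant and vomeronasal receptor genes (1979 genes) were used as a floor: a member's group mean was read as expression only above the 95th percentile of these receptors in that group. That floor was 6.21 TPM in DTL1, 3.14 in the glomerulus, 2.92 in ATL (0.09 to 6.89 among its 4 mice), 2.58 in DTL3, 1.99 in DTL2 and 1.13 in OMCD, and at most 0.4425 in the other 9 groups. Markers of the labelled segments were found in them. Podocyte genes summed to 10282 TPM in the glomerulus, and proximal tubule genes to 12464 TPM in PTS1, 8792 in PTS2 and 1600.5 in PTS3. Thin limb genes summed to between 7021 and 12528 TPM in the 4 thin limb groups, with 2 of the 5 genes above the floor in ATL. Thick limb genes summed to 26586 TPM in MTAL and 44809 in CTAL. Distal convoluted and connecting tubule genes summed to 13802 TPM in DCT and 1547.5 in CNT. Principal cell genes summed to between 25028 and 36988 TPM in the 3 collecting duct groups. Endothelial genes summed to 5033 TPM in the glomerulus and 3312 TPM in DTL1, and to between 53 and 1485 TPM elsewhere. The sum of a marker list takes in all its genes, also those under the floor. In bulk samples like these, fewer cells of a type and less RNA per cell cannot be told apart.

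Of the 40 members, 37 passed the filter on low values (at least 1 TPM in at least 3 mice), and Wnt2b, Dkk4 and Sfrp5 did not. All 37 differed among the 15 groups by limma's moderated F-test, where 93.9% of all tested genes did, so this count is near the background. Group means stood above the receptor floor in 290 of 600 pairs of member and group. That floor was only 0.00833 TPM in PTS3 and 0.012 in PTS2, so means far under 1 TPM count there, such as Wnt6 at 0.075 TPM in PTS2. Members above it numbered from 11 of 40 in ATL, where it was high, to 27 in MTAL and in DCT. A mean of at least 10 TPM above the floor was reached by 22 members: 9 ligands, 6 Frizzleds, 5 secreted antagonists and both ubiquitin ligases. For these counts the share over all genes was not computed. Summed over the 19 ligands, the level was 742 ± 95.9 TPM in IMCD, 560 ± 119 in ATL, 528 ± 330 in DTL1 and 471 ± 19.2 in DTL3, against 5.26 ± 1.06 in DCT and 7.06 ± 1.89 in PTS1. The 10 Frizzleds were more even, from 28.6 ± 3.91 TPM in PTS1 to 237 ± 23.3 in CCD. The map of all members shows single bright cells among ligands and antagonists and longer bands for Fzd4, Fzd6, Fzd8 and the ubiquitin ligases.

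**Figure D1:**
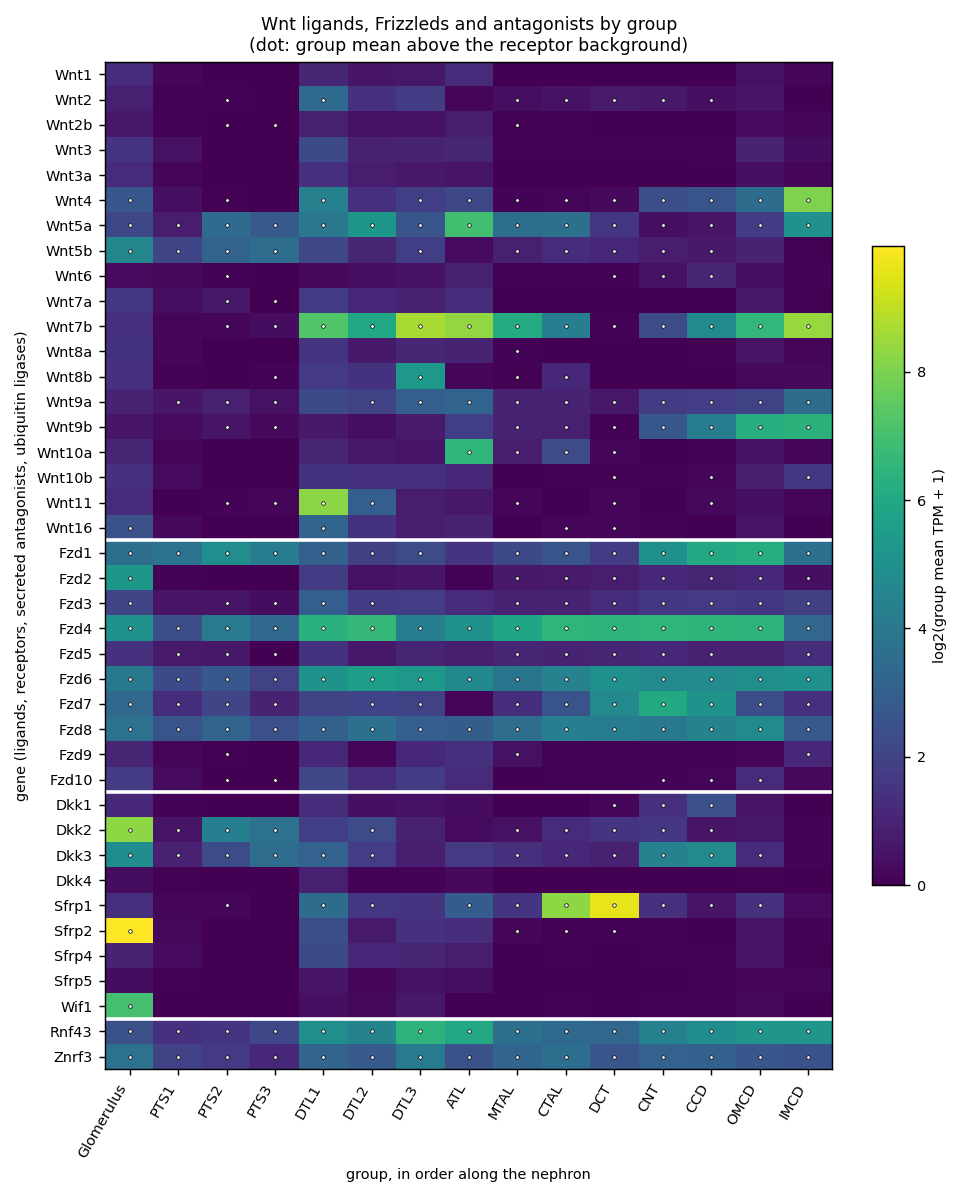
Colour gives log2(group mean TPM + 1) for each of the 40 members (rows, by role) in each of the 15 groups (columns), and a dot marks a mean above the receptor floor. Bright cells include Sfrp2 in the glomerulus (998 TPM), Sfrp1 in DCT (765 TPM), Wnt7b in DTL3 (403 TPM) and Dkk2 in the glomerulus (304 TPM).

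In the test for genes that stood above all other groups in a single one (adjusted p under 0.05 and a log2 difference of at least 1 from each other group), 14 of 37 members were called, beside 8.8% of all tested genes. One of them, Sfrp4 in DTL1 at 3.75 ± 1.24 TPM, lay under the receptor floor of that group and is not read as expression. The remaining 13 were 5 genes of the glomerulus, 2 each of DTL1 and ATL, and 1 each of DTL3, IMCD, DCT and CCD. After median ratio rescaling, quantile normalization, subtraction of the receptor floor and with each mouse left out in turn, 9 of these 13 kept the call: Wnt4, Wnt5a, Wnt8b, Wnt10a, Wnt11, Fzd2, Dkk2, Sfrp2 and Wif1.

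In the thin limbs, DTL1, DTL3 and ATL each had a ligand found almost nowhere else. Wnt11, a ligand of polarity signalling that the ureteric bud tip makes in development, was high in DTL1, where mice 1, 3 and 5 read 188, 635 and 74.7 TPM. The spread was wide, yet the lowest of these mice lay above the highest value elsewhere, 14.0 TPM in a DTL2 mouse. The log2 margin over DTL2 was 5.34 (SE 0.40, adjusted p = 9.43e-14 by limma). Thin limb markers summed to 10421, 9164 and 4617 TPM in the same 3 mice and endothelial markers to 2943, 3935 and 3057 TPM. Stromal and mesangial markers, at 86.0, 123 and 70.6 TPM, and podocyte markers, at 76.3, 99.3 and 71.6 TPM, had the same order as Wnt11, and leukocyte markers were also highest in mouse 3, at 38.6, 281 and 53.1 TPM. In DTL1 only 6 of 12 stromal and mesangial, 2 of 6 podocyte and 4 of 7 leukocyte genes were above the floor. The part of these cells in the spread of Wnt11 was not tested. In DTL2 the mean of Wnt11 was 6.80 ± 6.30 TPM and in DTL3 0.670 ± 0.217 TPM.

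Wnt8b, a ligand best known from the developing brain, read 45, 36.6 and 35.7 TPM in the 3 DTL3 mice. No mouse of any other group reached 4 TPM, and DTL2 was at 1.75 ± 0.226. Its margin was 3.87 (SE 0.31, adjusted p = 3.2e-12 by limma). Urothelial markers, which the tissue around the inner medulla could bring in, summed to 87.7 TPM in DTL3 and to at most 23.8 TPM in any other group. Only 2 of the 6 genes on that list were above the floor in DTL3, so the sum does not show a full urothelial set. The part of such cells in the level of Wnt8b was not tested.

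Wnt10a, a ligand known from skin and tooth development, marked the next segment. The 4 ATL mice read 113, 103, 57.0 and 89.6 TPM, far above the 3 DTL3 mice at 0.500, 0.06 and 0.845 TPM and the MTAL at 0.728 ± 0.769. The only other tubule segment with Wnt10a over 1 TPM and above its floor was CTAL at 3.84 ± 1.62 TPM. Mouse 4, the lowest of ATL for Wnt10a and also for Wnt5a and Wnt7b below, stood apart in its markers: thin limb markers summed to 4737 TPM against 7213 to 8175 in the other 3, leukocyte markers to 356 against 5.95 to 22.9, and stromal and mesangial markers to 94.9 against 3.21 to 32.2. Without this mouse the Wnt10a margin was 4.47 and that of Wnt5a 1.77. With all mice the Wnt10a margin over CTAL was 4.27 (SE 0.22, adjusted p = 1.75e-19 by limma).

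Wnt5a, the main ligand of beta-catenin-independent signalling, was also highest in ATL, with 172, 107, 96.0 and 118 TPM in the 4 mice. It was more widespread than the ligands above: DTL2 held 37.8 ± 6.89 TPM, IMCD 31.5 ± 7.20, DTL1 14.8 ± 4.51, CTAL 11.9 ± 0.668, MTAL 11 ± 4.07 and PTS2 10.3 ± 2.31. No other mouse reached the lowest ATL mouse. The margin over DTL2 was 1.66 (SE 0.25, adjusted p = 1.4e-05 by limma). The level went down between DTL2 and DTL3 and up again in ATL, so that DTL3 at 5.005 ± 2.40 TPM lay between 2 groups with more.

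Wnt7b was the most abundant ligand of the family in 8 of the 15 groups. It read 386, 400.3 and 422 TPM in DTL3, 162, 473 and 408 in IMCD, 424, 327, 252 and 286 in ATL and 231, 149.5 and 77.0 in DTL1. DTL3, IMCD and ATL overlapped one another, and DTL1 overlapped IMCD but lay under every DTL3 and ATL mouse. Further from the inner medulla the means were 96.8 ± 19.9 TPM in OMCD, 69.4 ± 31.2 in MTAL, 60.5 ± 4.40 in DTL2, 25.9 ± 3.87 in CCD, 18.0 ± 3.23 in CTAL and 3.92 ± 1.49 in CNT. The proximal tubule and DCT held at most 0.267 TPM. In DTL3 the gene made up 85.6 ± 1.17% of the summed ligand level, in MTAL 81.1 ± 5.54% and in ATL 57.5 ± 3.68%.

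**Figure D2:**
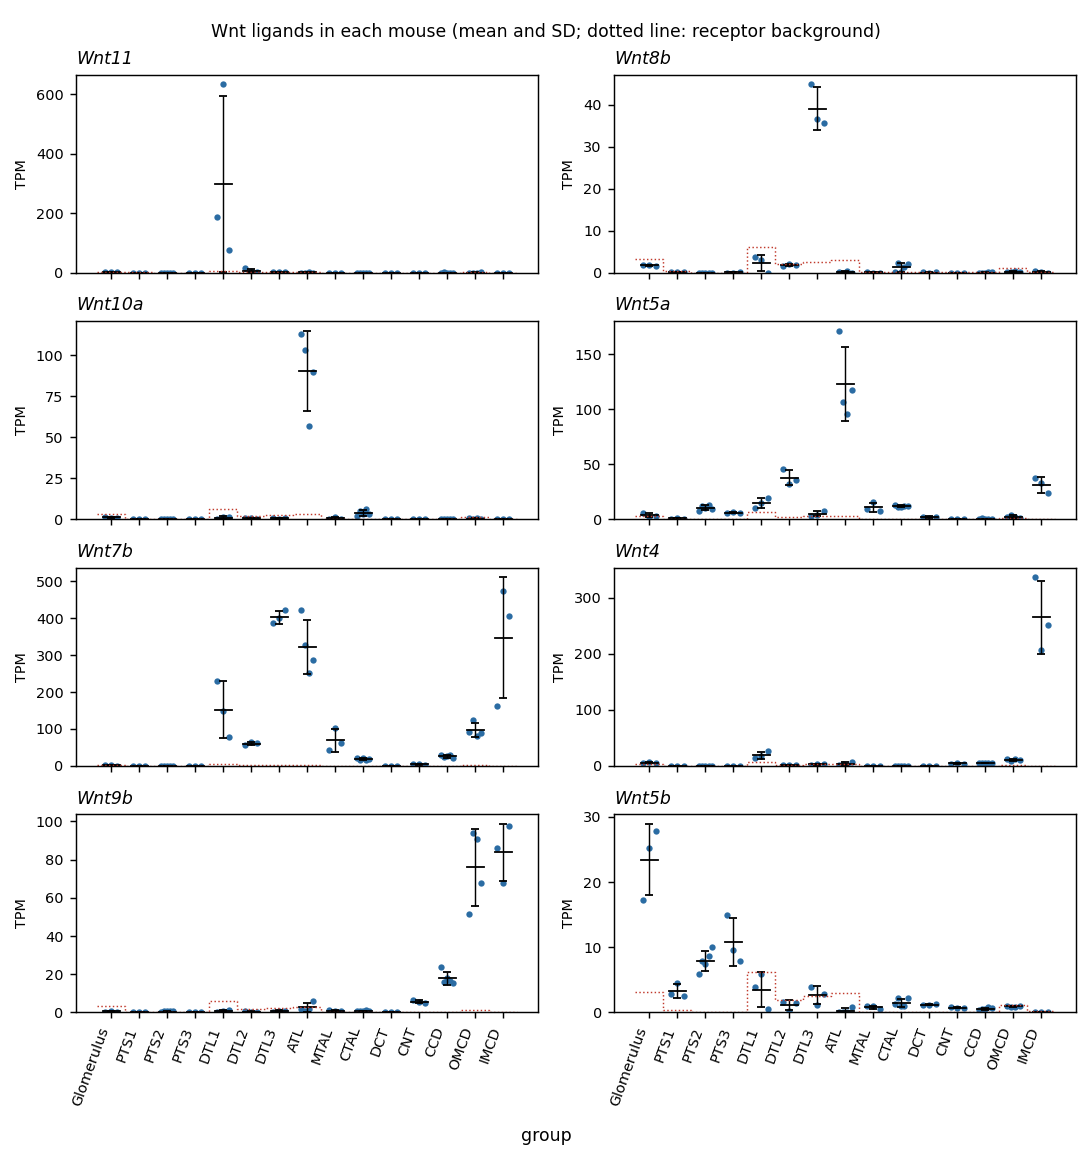
Each panel gives 1 ligand in TPM (vertical axis, linear) by group; points are mice, bars the mean with SD and the dotted line the receptor floor. Wnt11, Wnt8b, Wnt10a and Wnt4 each rise in 1 group (299, 39.1, 90.7 and 265 TPM), while Wnt7b is high in both the thin limbs and the inner collecting duct and Wnt9b from CNT onward.

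Along the collecting duct system the means of Wnt4, Wnt5a, Wnt7b, Wnt9a and Wnt9b were above the floor and higher at each step from CNT to CCD, OMCD and IMCD, though not every step was called. Wnt9b, the bud-derived ligand that induces nephrons in development, read 6.55, 5.36 and 4.99 TPM in CNT, 24.0, 15.7, 17.8, 16.5 and 15.2 in CCD, 51.5, 93.7, 90.7 and 67.6 in OMCD and 85.9, 67.9 and 97.5 in IMCD. Every CCD mouse lay above every CNT mouse and every OMCD mouse above every CCD mouse, while OMCD and IMCD overlapped. Elsewhere its mean stayed at or under 2.63 TPM, a value found in ATL and under the floor there.

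Wnt4, the ligand that drives the mesenchyme to form tubules, was concentrated at the far end. The IMCD mice read 337, 207 and 251 TPM against 11.4, 8.01, 11.4 and 11.3 in OMCD, 4.83, 4.25, 5.90, 5.03 and 5.27 in CCD and 3.58, 5.71 and 3.60 in CNT. Every IMCD mouse lay far above all others, whereas CNT and CCD overlapped. DTL1, at 19.2 ± 6.19 TPM, was the next group, and the margin over it was 3.73 (SE 0.26, adjusted p = 3.1e-15 by limma). In IMCD, Wnt7b and Wnt4 together with Wnt9b made up most of the ligand level, with shares of 45.4 ± 17.5% for Wnt7b and 36.95 ± 14.5% for Wnt4. The lowest Wnt7b value of IMCD and the highest of Wnt4 came from the same mouse, mouse 1, in which thin limb markers summed to 1402 TPM against 2467 and 2685 TPM in the other 2 mice. In the same mouse endothelial markers summed to 27.4 TPM against 216 and 317 TPM, and leukocyte markers to 18.6 TPM against 35.2 and 34.2 TPM. Their part in the Wnt7b and Wnt4 values was not tested. One gene of that marker list, Slc14a2, is also a known transporter of the IMCD.

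The 250 bases before the start of Wnt4 and Wnt9b are shown because these genes were both higher toward the inner collecting duct. The bases are RefSeq promoters of build GRCm38.p6, at chr4:137277385-137277634 on the plus strand and chr11:103749822-103750071 on the minus strand, 5′ to 3′. Capitals mark a match to the TCF/LEF motif CTTTGNT, through which beta-catenin acts, or to the TATA box TATAAA, each on either strand (ANCAAAG and TTTATA on the other).
Wnt4: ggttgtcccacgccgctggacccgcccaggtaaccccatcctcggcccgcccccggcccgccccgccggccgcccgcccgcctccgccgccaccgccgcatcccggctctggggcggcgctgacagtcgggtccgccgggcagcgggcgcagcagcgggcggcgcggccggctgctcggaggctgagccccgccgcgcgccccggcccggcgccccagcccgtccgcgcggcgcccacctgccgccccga
Wnt9b: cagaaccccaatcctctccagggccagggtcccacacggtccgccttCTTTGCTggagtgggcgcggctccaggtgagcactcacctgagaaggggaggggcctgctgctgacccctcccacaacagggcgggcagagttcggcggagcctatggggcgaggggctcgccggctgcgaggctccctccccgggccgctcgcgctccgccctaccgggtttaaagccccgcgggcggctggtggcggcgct
Wnt9b held 1 TCF/LEF match, CTTTGCT, starting 203 bases before the start, and Wnt4 held neither motif. Among all 32851 RefSeq promoters, 16% held the TCF/LEF letters and 12.4% the TATA letters in the same stretch. Of the 40 members, 27 had promoters there (31 starts), with TCF/LEF letters at 6 and TATA letters at 5 of the 31. A match is a description of letters and not a known binding site.

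Wnt5b, a close relative of Wnt5a, was the most abundant ligand of the glomerulus, PTS1 and PTS3, and came second to Wnt5a in PTS2. The glomeruli read 17.3, 25.2 and 27.9 TPM, and PTS3, PTS2 and PTS1 10.8 ± 3.67, 7.96 ± 1.53 and 3.26 ± 1.08 TPM. The mice of the glomerulus and PTS3 were narrowly apart, with 17.3 TPM as the lowest glomerulus and 14.96 as the highest PTS3. The margin was 1.195 (SE 0.34, adjusted p = 0.0128 by limma). This call was not stable: the margin was -0.09 after median ratio rescaling and -0.38 after quantile normalization, 0.94 after the receptor floor was subtracted, and the adjusted p by limma ranged from 0.0563 to 0.115 without PTS3 mouse 2 (1.13), PTS3 mouse 3 (0.99), glomerulus mouse 2 (1.13) or glomerulus mouse 3 (1.06).

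The other ligands were low. Wnt16 was above the floor in DTL1 at 8.56 ± 4.46 TPM and in the glomerulus at 4.53 ± 2.24 TPM. Wnt2 in DTL1 read 6.18, 21.4 and 1.24 TPM, overlapping DTL3 at 4.56, 0 and 2.81 TPM. In DTL1 stromal and mesangial markers (86.0, 123 and 70.6 TPM) and podocyte markers (76.3, 99.3 and 71.6) had the same order as Wnt2. Of these lists, only 6 of 12 and 2 of 6 genes were above the floor in DTL1. Endothelial and leukocyte markers were also highest in the DTL1 mouse with the most Wnt2. In DTL3 endothelial (1668, 678 and 1038), stromal and mesangial (27.8, 14.0 and 25.7) and urothelial markers (119, 60.5 and 83.3) had the same order. Of these lists, 8 of 8, 3 of 12 and 2 of 6 genes were above the floor in DTL3. The part of these cells in the level of Wnt2 was not tested. Its DTL1 margin was 1.37 (SE 0.43, adjusted p = 0.0343 by limma), and this call was lost on quantile normalization (0.53), on subtraction of the floor (0.83) and without DTL1 mouse 1 (1.34), DTL1 mouse 3 (0.58) or DTL3 mouse 2 (0.66). Wnt9a, a ligand of joint and blood development, was highest in IMCD at 10.3 ± 4.59 TPM. In ATL the mice read 4.67, 6.31, 0.22 and 21.7 TPM, so that the ATL mean of 8.21 TPM was carried by mouse 6, and DTL3 was at 7.20 ± 1.54 TPM. Wnt10b reached 2.02 ± 0.763 TPM in IMCD and Wnt6 1.12 ± 0.458 TPM in CCD. Wnt1, Wnt3 and Wnt3a were above the floor in no group (highest mean 3.69 TPM, Wnt3 in DTL1), and Wnt2b, Wnt7a and Wnt8a stayed under 1 TPM wherever they were above it.

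Several Wnt genes lie side by side in the genome. In the RefSeq gene order of GRCm38.p6, 4 pairs of ligands had no other protein-coding gene between them: Wnt6 with Wnt10a, Wnt3a with Wnt9a, Wnt9b with Wnt3, and Wnt10b with Wnt1. In 3 of the 4 pairs 1 gene reached 10 TPM above the floor and the other did not, in 1 pair neither did, and in 0 pairs both did. Over all 19 ligands 9 reached that level, so mixed pairs are also common among ligands paired at random. In ATL, Wnt10a stood at 90.7 TPM while Wnt6 was at 0.90 TPM. In IMCD, Wnt9b stood at 83.8 TPM while Wnt3 was at 0.25 TPM.

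Among the Frizzleds, 1 member, Fzd2, was called in the single-group test, and the others spread over several groups. Fzd4, the receptor for Norrin as well as for Wnts, was the most abundant Frizzled in 9 of the 15 groups. Its mean stood between 58.1 and 99.5 TPM in 8 groups: 99.5 ± 11.3 in DTL2, 91.0 ± 10.2 in CTAL, 89.7 ± 14.3 in CNT, 87.7 ± 14.7 in CCD, 85.3 ± 10.8 in DCT, 85.2 ± 13.3 in OMCD, 81.0 ± 26.8 in DTL1 and 58.1 ± 5.55 in MTAL. In the inner medulla it was lower, with 21.6, 15.4 and 19.8 TPM in the DTL3 mice, 39.0, 46.6, 18.0 and 21.2 in the ATL mice and 5.02, 12.3 and 9.10 in the IMCD mice. The OMCD mice read 67.2, 92.3, 97.6 and 83.4 TPM, so OMCD and IMCD did not overlap.

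Fzd6, which acts in planar polarity, was present all along the tubule beyond the proximal part. Its group means ran from 13.6 ± 2.12 TPM in MTAL to 46.6 ± 10.6 in DTL2 over the 11 tubule segments from DTL1 to IMCD. The proximal segments held 3.73 ± 0.975, 5.61 ± 0.570 and 2.78 ± 1.91 TPM. Fzd8 had its lowest mean, 4.47 ± 0.972 TPM, in PTS3 and its highest, 25.8 ± 6.25, in OMCD, and stood at 6.12 ± 0.840 in IMCD.

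Fzd1 and Fzd7 had their highest means in the connecting tubule and collecting duct, though neither was called in the single-group test. Fzd7 was highest in CNT, where the 3 mice read 70.2, 60.3 and 66.8 TPM, against 26.6, 23.0 and 24.0 in DCT, 28.9, 34.5, 29.5, 35.9 and 37.1 in CCD and 2.92, 2.68, 5.38 and 6.24 in OMCD. None of these 4 groups overlapped another. Fzd1 was highest in OMCD (43.3, 77.8, 80.7 and 81.2 TPM) and CCD (67.4, 53.5, 75.7, 77.9 and 45.8 TPM), which overlapped, with CNT at 31.1 ± 6.35, IMCD at 11.4 ± 3.04 and DCT at 2.42 ± 0.744. Fzd1 was also the most abundant Frizzled of all 3 proximal segments, with 28.6 ± 6.47 TPM in PTS2.

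Fzd2 was the most abundant Frizzled of the glomerulus, where the mice read 32.1, 42.6 and 39.5 TPM, above every other mouse. The next group was DTL1 at 2.37 ± 0.219, under its floor, and the margin was 3.53 (SE 0.17, adjusted p = 3.58e-21 by limma). Of the remaining Frizzleds, Fzd3 peaked at 6.88 ± 0.847 TPM in DTL1, and Fzd5, Fzd9 and Fzd10 stayed under 2 TPM wherever they were above the floor.

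**Figure D3:**
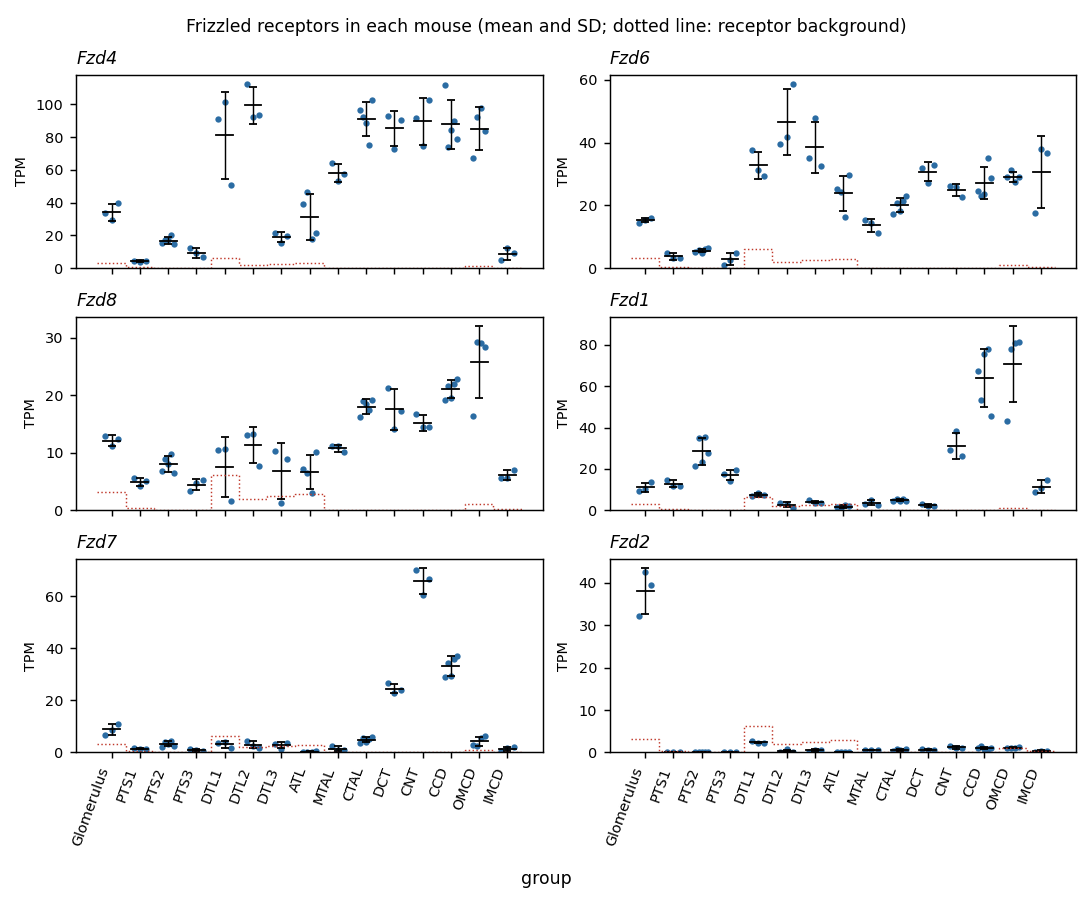
Each panel gives 1 Frizzled in TPM (vertical axis, linear) by group; points are mice, bars the mean with SD and the dotted line the receptor floor. Fzd4 is high from DTL1 to OMCD except DTL3 and ATL and low in IMCD (8.80 TPM), Fzd7 peaks in CNT (65.8 TPM), and Fzd2 is found in the glomerulus (38.1 TPM).

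Among the 9 secreted antagonists, Sfrp2, Dkk2 and Wif1 were called for the glomerulus, Sfrp1 for DCT and Dkk1 for CCD. In the glomerulus, Sfrp2, which binds Wnt ligands, read 1067, 724 and 1204 TPM. Dkk2, a ligand of the Lrp co-receptors, read 309, 291 and 312 TPM, and Wif1, a Wnt-binding inhibitor, 128, 137 and 120.4 TPM. Each of these 9 values lay above every mouse of every tubule segment. The margins were 7.57 (SE 0.30, adjusted p = 9.34e-25 by limma), 3.97 (SE 0.20, adjusted p = 1.52e-20 by limma), and 6.48 (SE 0.20, adjusted p = 1.91e-28 by limma). Sfrp2 and Wif1 were listed at 0 in all mice of PTS2 and PTS3, whereas Dkk2 was also present in PTS2 at 18.6 ± 2.08 TPM and PTS3 at 12.4 ± 2.51 TPM.

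Glomeruli hold several cell types, and markers of each were found beside these genes. Podocyte markers summed to between 9347 and 11060 TPM in the 3 glomerular mice, endothelial markers to between 4885 and 5268 TPM, stromal and mesangial markers to between 1242 and 1575 TPM and the 2 parietal epithelial markers to between 61.6 and 66.4 TPM. In no tubule segment did the stromal and mesangial sum exceed 93.3 TPM as a group mean. Which of these cells held Sfrp2, Dkk2, Wif1 and Fzd2 was not tested.

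The 250 bases before the start of the 3 glomerular antagonists are shown because these genes were high together. They are RefSeq promoters of GRCm38.p6 on the plus strand, at chr3:132085042-132085291 for Dkk2, chr3:83766071-83766320 for Sfrp2 and chr10:121033754-121034003 for Wif1, with capitals as above.
Dkk2: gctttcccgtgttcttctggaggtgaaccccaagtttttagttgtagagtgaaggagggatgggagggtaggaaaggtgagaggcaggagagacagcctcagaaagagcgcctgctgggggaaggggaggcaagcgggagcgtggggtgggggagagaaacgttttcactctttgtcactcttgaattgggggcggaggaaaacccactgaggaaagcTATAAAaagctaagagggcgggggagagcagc
Sfrp2: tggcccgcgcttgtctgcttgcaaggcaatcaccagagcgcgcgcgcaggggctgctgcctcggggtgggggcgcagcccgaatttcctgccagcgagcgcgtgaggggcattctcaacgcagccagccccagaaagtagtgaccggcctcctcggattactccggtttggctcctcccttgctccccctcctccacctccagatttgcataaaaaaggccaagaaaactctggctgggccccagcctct
Wif1: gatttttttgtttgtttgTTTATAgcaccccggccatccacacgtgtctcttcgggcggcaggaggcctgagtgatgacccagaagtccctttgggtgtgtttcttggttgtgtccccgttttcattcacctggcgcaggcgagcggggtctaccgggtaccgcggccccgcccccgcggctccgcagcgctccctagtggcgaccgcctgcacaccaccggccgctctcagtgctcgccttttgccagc
TATA letters began 32 bases before the start of Dkk2, as TATAAA, and 232 bases before that of Wif1, as TTTATA on the printed strand. Sfrp2 held neither motif, and none of the 3 held the TCF/LEF letters in this window.

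Sfrp1, the other abundant Sfrp, was highest in DCT and CTAL. The DCT mice read 706, 759 and 828 TPM and the CTAL mice 217, 307, 332, 375 and 292 TPM, with no overlap. Either neighbour was low: MTAL was at 1.80 ± 1.59 TPM and CNT at 1.53 ± 0.165. The margin of DCT over CTAL was 1.34 (SE 0.30, adjusted p = 0.0121 by limma), and the adjusted p by limma rose to 0.11 after the receptor floor was subtracted (1.34) and to between 0.056 and 0.128 without CTAL mouse 1 (1.23) or DCT mouse 1 (1.40), mouse 2 (1.34) or mouse 3 (1.28). Thick limb markers summed to 44809 TPM in CTAL, 26586 in MTAL and 3688 in DCT, and their part in the level of Sfrp1 was not tested.

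Dkk3, a divergent Dkk family member, was found in several groups. The glomeruli read 19.0, 36.4 and 29.1 TPM, the CCD mice 22.1, 27.9, 21.8, 22.9 and 30.0 and the CNT mice 25.6, 23.8 and 11.2, all overlapping. DTL1, at 11.7, 9.31 and 2.59 TPM, had a mean just above its floor, and PTS3 reached 10.9 ± 3.60. Dkk1, the classic Lrp antagonist, was low throughout and highest in CCD, where the 5 mice read 4.65, 4.69, 4.60, 5.53 and 2.84 TPM and CNT 1.59 ± 0.747. Its margin was 1.10 (SE 0.18, adjusted p = 0.00166 by limma), and this call was lost after quantile normalization (0.69), after median ratio rescaling (0.99) and without CNT mouse 1 (0.90, adjusted p = 0.144 by limma). Dkk4 and Sfrp5 never exceeded 0.85 TPM as a group mean.

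**Figure D4:**
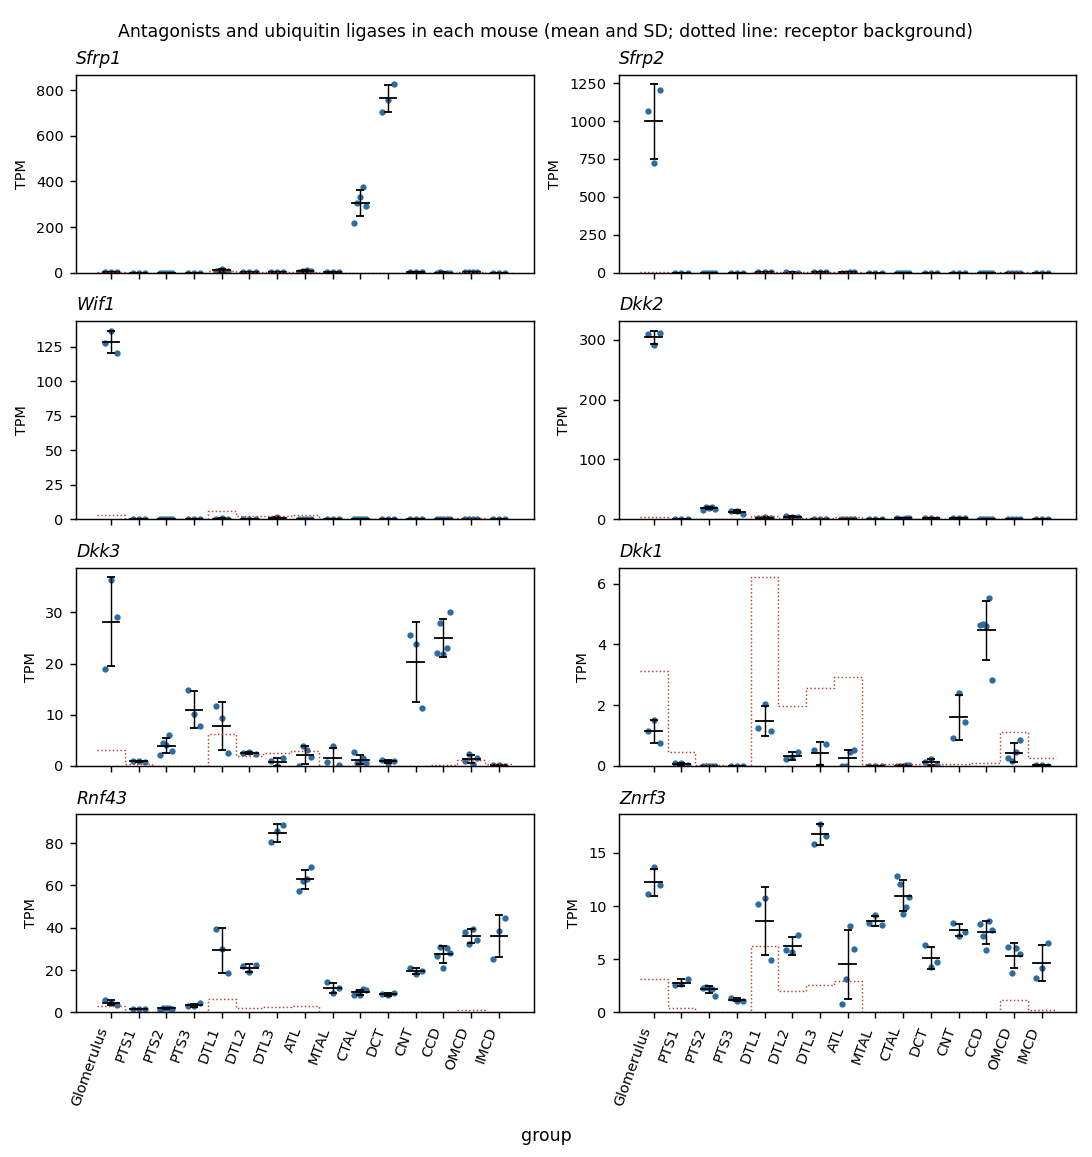
Each panel gives 1 antagonist or ubiquitin ligase in TPM (vertical axis, linear) by group; points are mice, bars the mean with SD and the dotted line the receptor floor. Sfrp2, Wif1 and Dkk2 stand out in the glomerulus (998, 128 and 304 TPM), Sfrp1 in DCT and CTAL (765 and 305 TPM), and Rnf43 in DTL3 and ATL (84.9 and 62.8 TPM).

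Rnf43 and Znrf3 are themselves known feedback targets of beta-catenin signalling and were above the floor in all 15 groups. Rnf43 was lowest in PTS1 at 1.68 ± 0.085 TPM and highest in DTL3, where the mice read 80.3, 85.8 and 88.5 TPM. ATL followed with 57.5, 61.9, 63.2 and 68.8 TPM, all under the lowest DTL3 mouse. OMCD (36.1 ± 3.31 TPM), IMCD (36.1 ± 10.1) and DTL1 (29.3 ± 10.5) came next. Znrf3 was also highest in DTL3, at 15.8, 17.7 and 16.6 TPM, but its next groups were the glomerulus at 12.2 ± 1.28 and CTAL at 11 ± 1.47, with ATL at 4.51 ± 3.21. No mouse outside DTL3 exceeded 13.7 TPM.

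Members were compared by how their 15 group means ran, using Pearson's r on log2(TPM + 1) over the 22 members that reached 10 TPM above the floor. Of 231 pairs, 9 had an r of 0.8 or more. Sfrp2 with Wif1 (0.98), Fzd2 with Sfrp2 (0.94), Fzd2 with Wif1 (0.94) and Dkk2 with Wif1 (0.82) all had their highest mean in the glomerulus, as did Wnt5b with Dkk2 (0.89). The other 4 pairs were Wnt7b with Rnf43 (0.90), Wnt9a with Rnf43 (0.87), Wnt7b with Wnt9a (0.86) and Fzd6 with Rnf43 (0.81). These are descriptions over 15 points that share libraries and scaling, not tests.

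Next, 14 pairs of consecutive or adjoining groups, the parallel limbs DTL1 and DTL2, and CCD with IMCD were compared, with differences given as first minus second on the log2(TPM + 1) scale, a call where limma's adjusted p was under 0.05 and the difference at least 1, and 37 members tested in each. There were 177 calls over 16 comparisons. In 139 the higher group's mean was above its receptor floor, and the other 38 are counted but not read. The share of all tested genes called ran from 1.12% (CNT against CCD) to 65.5% (PTS3 against DTL1) and is given beside each comparison. Of the 139 calls, 92 kept direction and threshold in both rescalings, after subtraction of the floor, with either pair of ATL mice where ATL was compared, and with each single mouse left out. These settings are meant where a call is said to be kept, and other pseudocounts are not among them. Many of these comparisons share a group, so their counts are not independent.

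**Figure D5:**
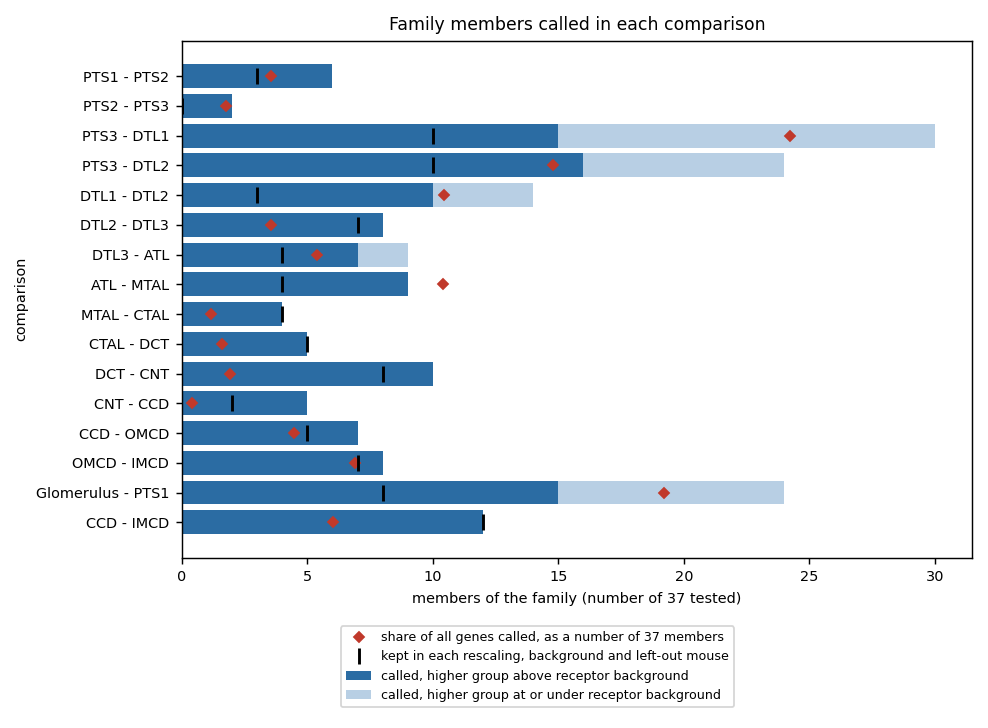
Bars give how many of the 37 tested members were called in each comparison (dark: the higher group is above the receptor floor; light: it is not), diamonds the share of all tested genes called, scaled to 37, and ticks the calls kept under every rescaling, floor and left-out-mouse setting. The tallest bars, PTS3 against DTL1 (30) and DTL2 (24) and glomerulus against PTS1 (24), are also those with the highest diamonds.

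Along the distal tubule and collecting duct, members were called at each step, with Wnt7b among them each time. Between DCT and CNT 10 of 37 members were called, beside 5.22% of all genes. Of these, 8 kept the call: Sfrp1 (8.24), the largest, and Wnt5a (1.18) were higher in DCT, and Dkk3 (-3.42), Fzd1 (-3.24), Wnt9b (-2.61), Wnt7b (-2.14), Wnt4 (-2.13) and Fzd7 (-1.41) in CNT. Rnf43 (-1.09) was -0.77 after median ratio and -0.71 after quantile rescaling, and Dkk1 (-1.15) was -0.93 without CNT mouse 2. Between the same groups principal cell markers summed to 1168 TPM in DCT and 14593 in CNT, and intercalated cell markers to 846 and 5631 TPM. Stromal and mesangial markers summed to 7.4 TPM in DCT and 76.0 in CNT. The part of these cells in the calls was not tested. The median over the members, -0.04, was close to that over all genes, -0.02.

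Between CTAL and DCT 5 members were called (all genes 4.35%), and all 5 kept the call: Wnt7b (4.13), Wnt5a (2.12) and Wnt10a (2.08) were higher in CTAL, and Fzd7 (-2.08) and Sfrp1 (-1.34) in DCT. Between MTAL and CTAL 4 were called (all genes 3.15%), again all kept, with Wnt7b (1.82) higher in MTAL and Sfrp1 (-6.94), Wnt10a (-1.56) and Fzd7 (-1.37) in CTAL. DCT had the lowest summed ligand level of the 15 groups, 5.26 ± 1.06 TPM, between 39.1 ± 1.90 in CTAL and 18.6 ± 1.99 in CNT.

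Between CNT and CCD 5 members were called, beside 1.12% of all genes. Wnt7b (-2.49) and Wnt9b (-1.51) were higher in CCD and kept the call. Dkk1 (-1.10) was -0.90 without CNT mouse 1. Fzd1 (-1.01) fell under the threshold without CNT mouse 1 (-0.97) or 3 (-0.90) or CCD mouse 1 (-0.98), 3 (-0.94) or 4 (-0.93), and Dkk2 (1.05) without CCD mouse 2 (0.999) or 4 (0.98). Between CCD and OMCD 7 were called (all genes 12.1%): Dkk3 (3.57), Fzd7 (2.75) and Dkk1 (1.93) were higher in CCD and Wnt9b (-2.004) and Wnt7b (-1.86) in OMCD, and these 5 kept the call. Wnt5a (-1.21) was lost after both rescalings and subtraction of the floor, and Fzd10 (-1.01) also without CCD mouse 1 (-0.99) or 4 (-0.97) or OMCD mouse 1 (-0.86) or 2 (-0.96). Distal convoluted and connecting tubule markers summed to 487 TPM in CCD and 50.0 in OMCD, and stromal and mesangial markers to 62.0 and 21.0. Higher in OMCD were endothelial (179 and 461 TPM), thin limb (23.7 and 121) and parietal epithelial markers (1.51 and 17.7). Their part in the CCD against OMCD calls was not tested.

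Between OMCD and IMCD 8 members were called, or 21.6%, beside 18.6% of all genes, so this count is near the background. Of all 6284 genes called, 5135 were higher in OMCD. The 4 ligands Wnt4 (-4.52), Wnt5a (-3.24), Wnt7b (-1.68) and Wnt9a (-1.495) were higher in IMCD, and the 4 Frizzleds Fzd4 (3.20), Fzd1 (2.52), Fzd8 (1.91) and Fzd7 (1.08) in OMCD. This division by role was not tested. Wnt9b (-0.14) and Fzd6 (0.02), the most abundant Frizzled of IMCD, were not called. Fzd7 was the only one of the 8 not kept, with 0.97 without OMCD mouse 3, 0.91 without OMCD mouse 4 and 0.79 without IMCD mouse 1. Over the whole duct, CCD against IMCD, 12 members were called (all genes 16.3%) and all kept the call: Dkk3 (4.59), Fzd7 (3.84), Fzd4 (3.24), Fzd1 (2.40), Dkk1 (2.40) and Fzd8 (1.67) were higher in CCD, and Wnt4 (-5.43), Wnt5a (-4.45), Wnt7b (-3.55), Wnt9b (-2.15), Wnt9a (-1.62) and Wnt10b (-1.36) in IMCD. Markers of other cell types moved with both comparisons: over the 6 genes of the intercalated cell list, sums were 4646 TPM in CCD (4286 to 5476 among mice), 3126 in OMCD (2579 to 3637) and 2.34 in IMCD (0.65 to 5.13), and over the 4 thick limb genes 1334 (1024 to 1636), 1392 (756 to 1841) and 0.46 (0.34 to 0.54). Their part in the calls on members was not tested. The median of all genes was 0.32 for OMCD against IMCD and -0.04 for CCD against IMCD.

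In the thin limbs, DTL2 against DTL3 gave 8 called members, beside 9.58% of all genes. Fzd4 (2.33), Wnt5a (2.75) and Dkk2 (1.298) were higher in DTL2, and Wnt8b (-3.87), Wnt7b (-2.73), Rnf43 (-1.97) and Znrf3 (-1.28) in DTL3, and these 7 kept the call. Wnt11 (1.61) was 1.07 and not called without DTL2 mouse 1. Urothelial markers summed to 7.49 TPM in DTL2 and 87.7 in DTL3, thick limb markers to 21.8 and 258, and leukocyte markers to 140.5 and 18.7. In DTL3 only 2 of 6 urothelial, 1 of 4 thick limb and 2 of 7 leukocyte genes were above the floor. The part of these cells in the DTL2 against DTL3 calls was not tested. DTL3 against ATL gave 9 (all genes 14.6%), 2 of them at or under the floor. Wnt8b (5.17) and Znrf3 (1.90) were higher in DTL3 and Wnt10a (-5.97) and Wnt5a (-4.41) in ATL, and these 4 kept the call. Fzd7 (1.71) and Wnt5b (1.52) were lost on quantile normalization and subtraction of the floor, and Sfrp1 (-1.299) with ATL mice 2 and 3 alone (-0.83).

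ATL against MTAL gave 9 called members beside 28.1% of all genes, so the share was under the background. Wnt10a (5.83), Wnt5a (3.40), Rnf43 (2.36) and Wnt7b (2.27) were higher in ATL and kept the call. Of the others, Wnt4 (1.86) and Sfrp1 (1.496) were lost on quantile normalization, and Wnt9a (1.62) was 0.97 without ATL mouse 6. Znrf3 (-1.02) was -0.25 with ATL mice 4 and 6 alone, -0.56 without ATL mouse 2, -0.97 without ATL mouse 3 and -0.97 without MTAL mouse 2. Fzd7 (-1.03) was -0.98 without ATL mouse 2, 3 or 4 and -0.70 without MTAL mouse 1.

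At the entry to the loop, differences were frequent over all genes, with medians of -1.33 for PTS3 against DTL1 and -0.71 for PTS3 against DTL2, and they moved to -0.81 and -0.38 after median ratio rescaling. PTS3 against DTL1 gave 30 members (all genes 65.5%), 15 of them at or under the floor, and PTS3 against DTL2 gave 24 (all genes 40%), 8 of them so. In each comparison 10 kept the call. Higher in both DTL1 and DTL2 were Wnt7b (-6.89 and -5.70), Wnt11 (-7.51 and -2.17), Fzd6 (-3.34 and -3.82), Fzd4 (-2.98 and -3.32) and Rnf43 (-2.79 and -2.38), and Dkk2 was higher in PTS3 (1.98 and 1.49). Against DTL1 the others were Wnt4 (-4.28), Wnt16 (-3.14), Sfrp1 (-3.05) and Wnt2 (-2.79), and against DTL2 they were Wnt5a (-2.48), Wnt5b (2.43), Fzd1 (2.37) and Dkk3 (1.83). Both comparisons share the PTS3 mice.

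The calls that did not hold at the entry to the loop were Fzd1 (1.06, and 0.97 without PTS3 mouse 3), Fzd3 (-2.67), Wnt5a (-1.15, but 0.09 and 0.87 after median ratio and quantile rescaling, and -0.95 without DTL1 mouse 5), Wnt5b (1.49, and 0.86 without DTL1 mouse 5) and Znrf3 (-2.10, but 0.26 after quantile normalization) against DTL1. Against DTL2, 3 Frizzleds changed sign on quantile normalization: Fzd3 (-1.32, to 0.13), Fzd8 (-1.17, to 0.22) and Fzd7 (-1.02, to 0.51, and 0.09 after the floor was subtracted). Fzd7 was also -0.84 without PTS3 mouse 3 and -0.74 without DTL2 mouse 1. The others not kept against DTL2 were Sfrp1 (-1.46, and -0.99 without DTL2 mouse 1), Wnt9a (-1.51) and Znrf3 (-1.74). For DTL1 against DTL2, 14 members were called (all genes 28.2%), 4 of them at or under the floor. Wnt11 (5.34) and Wnt4 (2.95) were higher in DTL1 and Wnt5a (-1.32) in DTL2, and these 3 kept the call. Wnt7b (1.197) was 0.83 without DTL1 mouse 1, Wnt2 (1.51) was 0.73 without DTL1 mouse 3, and Fzd1 (1.31) was 0.97 without DTL2 mouse 3. Dkk3 (1.25) was lost without DTL1 mouse 1 (0.86) or 3 (1.11) or DTL2 mouse 1 (1.24) or 3 (1.15), and Fzd3 (1.35), Sfrp1 (1.59) and Wnt16 (1.75) on quantile normalization. Endothelial markers summed to 3312 TPM in DTL1 and 1485 in DTL2, and stromal and mesangial markers to 93.3 and 27.6 TPM. Thick limb markers were at 259 and 21.8 TPM, principal cell markers at 41.0 and 3.85 and intercalated cell markers at 23.5 and 4.16. Of these 3 lists, only 1 of 4, 2 of 6 and 1 of 6 genes were above the floor in DTL1, and 1, 0 and 1 in DTL2. In DTL1 mice 1, 3 and 5, Wnt4 (14.3, 17.1 and 26.1 TPM) had the same order as principal and intercalated cell markers. Distal convoluted and connecting tubule, parietal epithelial and urothelial markers had this order too, and thin and thick limb markers the reverse. The order therefore singles out no cell type. The part of these cells in the calls was not tested.

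The proximal segments were compared in order. PTS1 against PTS2 gave 6 members (all genes 9.57%), all higher in PTS2. Dkk2 (-3.73), Wnt5a (-2.70) and Fzd4 (-1.76) kept the call, Fzd1 (-1.09) was -0.76 after quantile normalization, Dkk3 (-1.34) was lost without PTS1 mouse 3 (-1.29) and Wnt5b (-1.08) likewise (-0.95). PTS2 against PTS3 gave 2, or 5.41%, beside 4.7% of all genes, so this count too is near the background. Dkk3 (-1.25) was lost without PTS2 mouse 1 (-1.11) or 5 (-1.18) or PTS3 mouse 1 (-1.02) or 2 (-1.303), and Fzd7 (1.17) without PTS3 mouse 3 (0.98).

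The glomerulus against PTS1 gave 24 members, beside 51.9% of all genes, all higher in the glomerulus, and 9 of them at or under the floor. Sfrp2 (9.71), Dkk2 (7.71), Wif1 (6.97), Fzd2 (5.19), Dkk3 (3.90), Fzd4 (2.75), Wnt5b (2.52) and Wnt4 (2.30) kept the call. Fzd3 (1.55), Fzd6 (1.80), Fzd7 (1.97), Wnt16 (2.08) and Znrf3 (1.80) were lost on at least 1 rescaling. Fzd8 (1.15) and Wnt5a (1.299) changed sign on quantile normalization, to -0.44 and -0.11, and Wnt5a was 0.998 without glomerulus mouse 1. The median over all genes was 0.96, and 0.45 after median ratio rescaling.

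Other genes of the pathway came from lists chosen by function. By the F-test, which 93.9% of all tested genes passed, those that differed were all of the 6 co-receptors, 7 R-spondins and their receptors, 5 genes of release and inactivation, 8 further extracellular modulators, 11 genes of the cytoplasmic relay, 8 nuclear factors, 13 feedback targets (Rnf43 and Znrf3 among them) and 10 polarity genes. Between DTL2 and DTL3, where Rnf43 and Znrf3 differed, 7 of the 13 feedback targets were called, beside 9.58% of all genes, and 6 of these were higher in DTL3. Rnf43 and Znrf3 are themselves among the 6, and the comparison was picked for them. Also among the 6 was Nkd1, an inhibitor of Dishevelled, with 71.3, 62.6 and 69.9 TPM in the DTL3 mice against 3.04 ± 0.963 TPM in DTL2 (-4.19, SE 0.33, adjusted p = 1.42e-13 by limma). Axin2, the most used reporter of beta-catenin activity, was called too (-1.15) but stayed low, at 4.41 ± 0.962 TPM in DTL3 and 7.35 ± 3.01 in ATL. Ccnd1 (4.07) was the exception, higher in DTL2. Markers of other cells also differed: urothelial markers summed to 7.49 TPM in DTL2 and 87.7 in DTL3. Thick limb markers summed to 21.8 and 258 TPM and leukocyte markers to 140.5 and 18.7 TPM. In DTL3 only 2 of 6 urothelial, 1 of 4 thick limb and 2 of 7 leukocyte genes were above the floor. The part of such cells in the calls on feedback targets was not tested. Of the other lists, 1 of 6 co-receptors, 2 of 8 nuclear factors, 1 of 5 release genes, 2 of 8 modulators and 1 of 10 polarity genes were called there, and 0 of the 11 relay genes and 0 of the 7 R-spondin genes.

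Between OMCD and IMCD, 2 of 5 release and inactivation genes were called, beside 18.6% of all genes. Both were higher in OMCD, as were 5135 of the 6284 genes called there. They were Wls, the carrier that takes Wnts to the cell surface (575 ± 30.4 against 115 ± 29.7 TPM, 2.36, SE 0.12, adjusted p = 2.73e-20 by limma), and Porcn, which attaches the lipid to Wnts (21.0 ± 1.53 against 5.09 ± 0.822 TPM, 1.89). The R-spondin receptor Lgr4 (1.948) and the modulators Sostdc1 (5.83), Gpc4 (4.77) and Gpc3 (3.76) were likewise higher in OMCD, as 2 of 7 and 3 of 8 genes called in their lists. The co-receptor Ryk (-1.04) was higher in IMCD and Ptk7 (2.07) in OMCD. Thick limb markers summed to 1392 TPM in OMCD and 0.46 in IMCD, and intercalated cell markers to 3126 and 2.34 TPM. Their part in these calls on pathway genes was not tested. Wls was highest in DTL3 at 689 ± 33.3 TPM.

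Further antagonists that are no members by name had sites of their own. Sostdc1, an inhibitor of Wnt and BMP signalling, stood at 1206 ± 112 TPM in CTAL and 652 ± 45 in MTAL. Frzb, a secreted Frizzled-related protein, stood at 274 ± 30.6 TPM in DTL3 and 262 ± 15.2 in DTL2, against 11.4 ± 14.9 in ATL (DTL3 minus ATL 5.15, SE 0.39, adjusted p = 1.07e-14 by limma). Notum, an enzyme that strips the lipid from Wnts, stood at 65.9 ± 10.1 TPM in PTS2 and 35.4 ± 3.71 in PTS3, the segments in which summed ligands were 20.6 ± 3.86 and 17.9 ± 2.52 TPM.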

How the data were processed

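RNA was measured by RNA-seq in hand-dissected glomeruli and tubule segments, extracted with Direct-zol and amplified with SMARTer V4 and Nextera XT kits per the labels' protocols. The deposited values are TPM as the authors computed them, scaled per gene length and to a fixed sum per sample (column sums 999998.6 to 1000190.3), and the depth behind them is unknown. STAR 2.5.4a, RSEM 1.3.0, Cell Ranger 3.0.2 and Seurat are named in the submitters' processing notes, with no role, and the genome build is not given in the sources used here. The 3 single-cell samples were not analysed here. One PTS2 column, whose mouse number and piece letter together match no sample title, was used by its group alone.

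For the tests, pieces of 1 mouse and segment were combined by their mean on the log2(TPM + 1) scale, which left 53 values per gene over 15 groups. Genes at 1 TPM or more in at least 3 mice (33793) were fitted together with limma 3.58.1 in R 4.3.3, with a trend in the variance and Benjamini-Hochberg adjustment over all of them; the code was tested on simulated data. A gene was called higher in 1 group by the least of its 14 differences, and by the largest of their p-values. P-values measure the spread between these mice. Differences on the log2(TPM + 1) scale understate changes of low genes. Replicate numbers showed no general pairing of segments: same-numbered mice of different groups had a median correlation of 2e-04 in their deviations (290 pairs). Of these pairs, 19 correlated over 0.1, and whether animals are shared remains unknown. Values are given in full for members called in the single-group test or one of the 16 comparisons and for those with a mean of at least 10 TPM above the receptor floor, and by range for the rest; other pathway genes were named where called beside a member or among the 2 highest of their list in a group. The members, the lists and the comparisons were chosen with earlier results of these data known. Alternatives were other pseudocounts, filters, rescalings, subtraction of the receptor floor, other ways to treat pieces of 1 mouse, a replicate block and leaving out each mouse.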

Additional observations from a re-analysis of the deposited data

Results flagged for a closer look

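Among groups of 4 or 5 mice, 69 values of gene and group could be examined for a mouse far from the others, and 5 stood out by Dixon's test, where chance gives about 1 in 20. Fzd1 in OMCD was at 43.3 TPM in mouse 1 and between 77.8 and 81.2 TPM in the other 3, and Fzd8 in OMCD was at 16.5 TPM in the same mouse and between 28.5 and 29.3 TPM in the others. In OMCD mouse 1 leukocyte markers summed to 513 TPM against 116 to 170 TPM in the other 3 mice, and thick limb markers to 756 TPM against 1401 to 1841 TPM; their part in the 2 low values was not tested. Wnt4 in OMCD was at 8.01 TPM in mouse 2 and between 11.3 and 11.5 TPM in the other 3. Fzd2 in CCD was at 1.57 TPM in mouse 2 and between 0.79 and 0.98 TPM in the other 4. Znrf3 in PTS2 was at 1.57 TPM in mouse 5 and between 2.21 and 2.42 TPM in the other 4.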

How the results depend on the processing

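All 37 members differed among the groups without any 1 mouse (37 to 37). With the filter at 5 TPM 24 did, since fewer members were tested, and 32 did after quantile normalization and 30 after subtraction of the receptor floor. Calls of a single group numbered 12 to 15 without 1 mouse (14 with all) and 9 with a pseudocount of 0.1. Calls over the 16 comparisons numbered 170 to 184 without 1 mouse (177 with all), 260 with a pseudocount of 0.1 and 82 with one of 5, which shrinks differences of low genes. They numbered 148 after median ratio rescaling, 125 after quantile normalization and 126 after subtraction of the receptor floor.

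With a replicate block on the mouse number, a fit that leaves out the PTS2 column matched to its group alone, 182 calls were made. Of the named calls it lost Fzd1 in PTS1 against PTS2 (-0.95), Dkk3 in PTS2 against PTS3 (-1.28) and Fzd1 in CNT against CCD (-0.95).

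Signs reversed after median ratio rescaling for Wnt5a in PTS3 against DTL1 (0.094) and for the glomerular margin of Wnt5b (-0.092). After quantile normalization they reversed for Wnt5a (0.87) and Znrf3 (0.26) in PTS3 against DTL1, Fzd3 (0.13), Fzd7 (0.51) and Fzd8 (0.22) in PTS3 against DTL2, Fzd8 (-0.44) and Wnt5a (-0.11) in the glomerulus against PTS1, and the glomerular margin of Wnt5b (-0.38). Subtracting the receptor floor reversed Fzd7 in PTS3 against DTL2 (0.094). The cause was not tested. With no depth in the table, levels near the floor cannot be told from 0, and DTL1, the glomerulus, ATL and DTL3 have the highest floors.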
